A study of Rattus norvegicus and Mus musculus with 24 samples.

Results

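Kidney transcriptomes of 8 Ctns knockout (KO) rats were compared by the number each animal carries: rats 26, 28, 30 and 32, in the range 25 to 32, against rats 18, 20, 22 and 24, in the range 17 to 24. These are 8 of the 24 libraries of the series and were chosen by the genotype and animal number in each sample title. The 8 wild-type (WT) rats carry the odd numbers of the same ranges, 4 in each, and give the same contrast of ranges without the knockout. The 8 mouse libraries were not used here. The study set out to learn how the loss of cystinosin changes kidney cells, and no stated aim concerns the number ranges. Genotypes are written CTNS KO and CTNS WT in the labels. According to the methods, all rats belonged to 1 knockout line on a Sprague-Dawley background and its control littermates, so every result below rests on a single mutated line. The labels give no age, sex, litter or treatment for any rat. The study kept male and female rats and gave some of them rapamycin or a placebo by pellet, and nothing assigns either to these libraries. A range therefore cannot be told apart from an age, sex, treatment, litter or processing day that follows it.

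Cystinosin, the product of Ctns, carries cystine out of lysosomes. Without it, cystine is stored throughout the body, and in the kidney the proximal tubule, which takes up filtered proteins and recovers glucose, phosphate and amino acids, is the first part of the nephron to lose function. Injured tubule cells are known to give up transporters and enzymes, to take on early-injury proteins such as KIM-1 and NGAL, to re-enter or arrest in the cell cycle, and to draw in macrophages and fibroblasts. The gene lists below follow these roles.

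Between 27592061 and 31165596 reads fell on genes in KO rats 17 to 24, and between 24684097 and 31147003 in KO rats 25 to 32. Values are given in CPM, the reads on a gene for each 1000000 reads on all genes of that library. They are not corrected for gene length and compare rats, not genes. Where 4 values are given for a range, they stand in the order of rats 18, 20, 22 and 24, or 26, 28, 30 and 32, and a mean is given ± SD with n = 4 rats. Fold changes are those of rats 25 to 32 over rats 17 to 24 on the log2 scale, from edgeR's quasi-likelihood fit, each with its standard error (SE). P-values were adjusted by Benjamini-Hochberg over all symbols tested, and "rose", "fell" and "called" mark an adjusted p under 0.05. Symbols are upper-case human-style symbols. Within each range, every pair of rats differed by more than sampling noise.

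CTNS was read at 16.8, 19.5, 19.4 and 21.6 CPM in rats 17 to 24 and 23, 18.6, 21.9 and 17.4 CPM in rats 25 to 32. The ranges overlapped, and the log2 fold change was 0.039 ± 0.10 (SE, adjusted p = 0.772). WT rats held 20.6 ± 1.51 and 22.6 ± 3.11 CPM in the 2 ranges, so KO and WT rats carried similar CTNS reads. A gene-level count cannot see a small deletion or frameshift, and this gene therefore does not check the genotype labels. The labels name kidney cortex as the tissue but proximal tubule cells as the cell type. Genes of other cells were plainly read in all 8 KO rats: UMOD, the thick limb's uromodulin, at 2485 to 3559 CPM, AQP3, a water channel of the collecting duct, at 137 to 178 CPM, and NPHS1, the podocyte's nephrin, at 89.7 to 202 CPM. The libraries are described here as cortex. In such bulk samples, fewer cells of a type and less RNA per cell cannot be told apart.

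A large share of the transcriptome differed between the number ranges in KO rats. Of 14931 symbols, 11700 had enough reads to be tested, and 5382 of these, or 46%, differed between the ranges: 2646 rose (22.6%) and 2736 fell (23.4%). The 4 rats of one range all lay above or all below the 4 of the other for 4799 symbols (41%), 4253 of them called. Most changes were small. Of the called symbols, 3097 changed by less than 0.5 on the log2 scale, 337 rose more than 2-fold and 211 fell more than 2-fold, and the median over all tested symbols was -0.0074. In WT rats the same ranges differed at 2108 of 11504 symbols (18.3%), with 1011 higher (8.79%) and 1097 lower (9.54%). Whether a symbol's range change itself differed between genotypes was tested over all 16 rats, and 1745 of 11839 symbols passed (14.7%), 841 with the KO change more positive (7.1%) and 904 with it more negative (7.64%). The count of 1745 became 1010 without KO rat 28, 1135 without KO rat 22 and 1163 without WT rat 27, and the WT count became 1370 without WT rat 29.

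The KO and WT comparisons share no animal, so their calls can be set side by side. Among the 11443 symbols tested in both genotypes, 1128 were called in both with the same sign, which is 21.4% of the 5278 KO calls and 54% of the 2089 WT calls; 98 were called with opposite signs. Another 4052 were called in KO rats only, which by itself does not show that the genotypes differ. Principal components of the 1000 most variable symbols set the 16 rats into 4 separate groups. On the first component KO rats 25 to 32 scored 32.1 to 40.2, KO rats 17 to 24 scored -2.7 to 3.69, and no WT rat scored above -9.97.

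**Figure D1:**
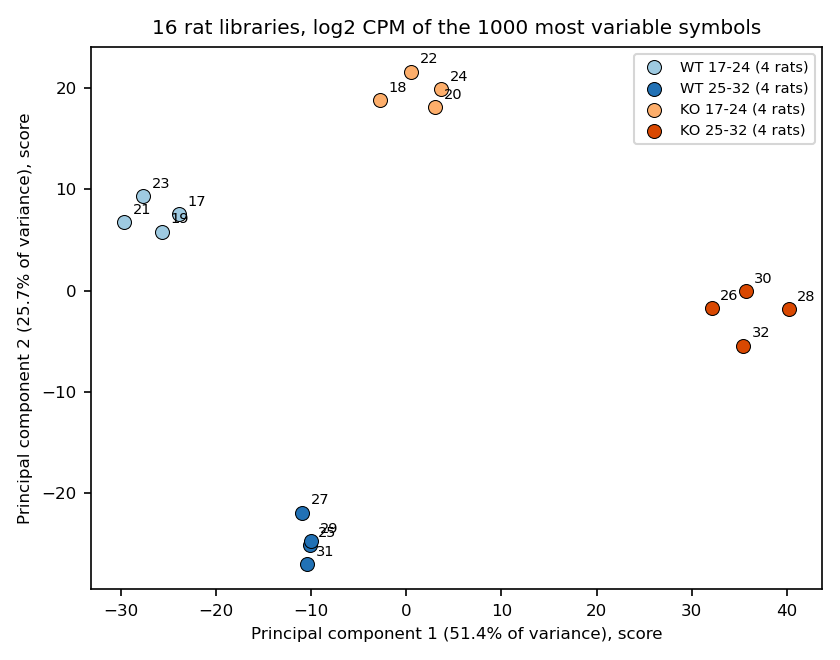
Scores of the 16 rats on the first and second principal component (51.4% and 25.7% of the variance of log2 CPM over 1000 symbols); each point is 1 rat with its number, coloured by genotype and range. KO rats 25 to 32 stand alone at the right (32.1 to 40.2), and both genotypes move down the second axis from rats 17 to 24 to rats 25 to 32.

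**Figure D2:**
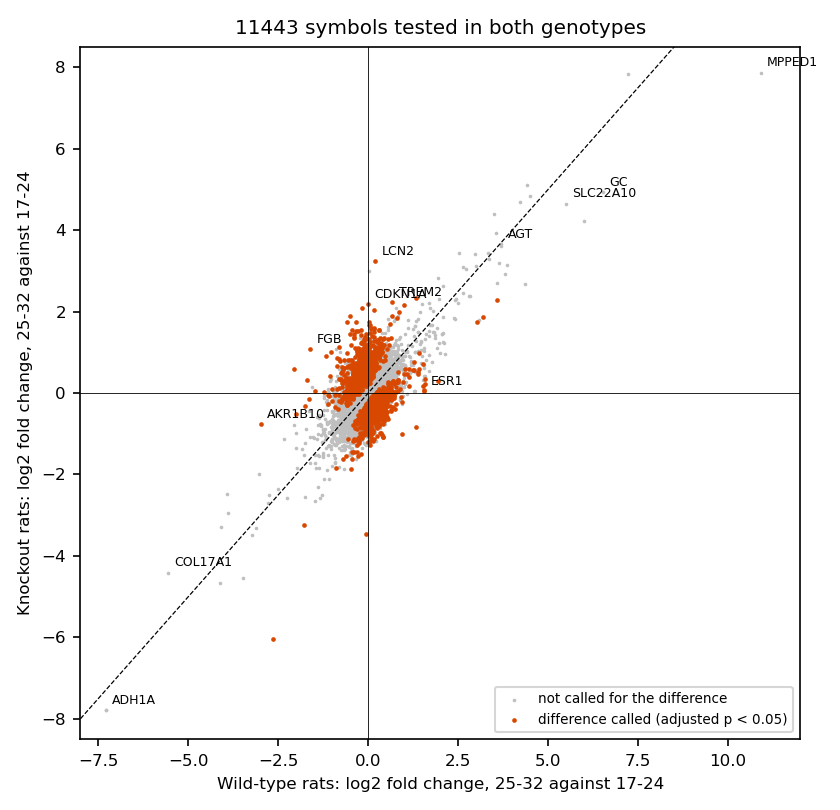
Log2 fold change of rats 25 to 32 over rats 17 to 24 in KO (vertical) against WT rats (horizontal) for 11443 symbols; orange points passed the test of the difference between genotypes, and the dashed line marks equal change. ADH1A and AGT, among the largest changes, lie near the line, whereas LCN2 (3.24 in KO and 0.19 in WT rats) and CDKN1A lie close to the vertical axis.

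Genes of tubular injury and dedifferentiation stood higher in KO rats 25 to 32. Of this list, 25 rose and 1 fell of 31 tested, with a median log2 fold change of 1.03, beside 22.6% and 23.4% of all symbols and their median of -0.0074. LCN2, which encodes the injury marker NGAL, was 7.22, 10.3, 5.69 and 10.6 CPM in rats 17 to 24 and 60.2, 127, 83.1 and 55.1 CPM in rats 25 to 32. Every rat of the higher-numbered range lay above every rat of the lower-numbered one, and the log2 fold change was 3.24 ± 0.29 (SE, adjusted p = 5.14e-05). In WT rats LCN2 was 2.54 ± 0.357 and 2.7 ± 0.3 CPM, and the difference of the 2 range changes was 3.04 (adjusted p = 0.000217). HAVCR1, which encodes KIM-1, the shed receptor of injured proximal tubule, rose from 31.8, 48, 33.9 and 55 CPM to 188, 227, 203 and 166 CPM. Its log2 fold change was 2.19 ± 0.16 (SE, adjusted p = 2.09e-05). It rose in WT rats too, from 3.15 ± 0.698 to 8.17 ± 1.79 CPM, and the genotypes did not pass the test of a difference (0.69, adjusted p = 0.105). The HAVCR1 counts were not whole numbers in the deposited table and are uncertain to that extent. VCAM1, an adhesion molecule of maladaptive tubules, was 23.9 ± 3.2 CPM in rats 17 to 24 and 28.4 ± 1.68 CPM in rats 25 to 32 and did not pass (log2 fold change 0.22, adjusted p = 0.0687).

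Fibrinogen chains are made by injured tubules as well as by liver. FGB was 11.6, 11.8, 12.1 and 13.9 CPM in rats 17 to 24 and 22.8, 34.4, 29.1 and 19.5 CPM in rats 25 to 32, a log2 fold change of 1.07 ± 0.15 (SE, adjusted p = 0.000421). WT rats fell, from 3.87 ± 0.806 to 1.16 ± 0.278 CPM (log2 fold change -1.61, adjusted p = 0.000492), and the difference was 2.66 (adjusted p = 3.14e-05). FGG rose from 0.886 ± 0.196 to 3.39 ± 0.746 CPM in KO rats, with a difference between genotypes of 2.40 (adjusted p = 0.00288). TIMP1, an inhibitor of matrix proteases, went from 7.19, 11.2, 8.99 and 9.76 CPM to 24.4, 41.2, 30.9 and 30.5 CPM, a log2 fold change of 1.75 ± 0.16 (SE, adjusted p = 5.14e-05), against 5.46 ± 0.713 and 5.13 ± 0.927 CPM in WT rats. The other members that rose did so by at least 0.35 on the log2 scale, the most being IL24, a cytokine of the IL-10 family. Among them were SPP1 (osteopontin, 1.74), LGALS3 (galectin-3, 1.46), KRT19 (a keratin of simple epithelium, 1.80), CD44 (a hyaluronan receptor, 1.25), VIM (vimentin, 0.92) and SOX9 (a repair transcription factor, 1.09). KRT19 and SOX9 rose in WT rats too, by 1.10 and 0.82. Their differences between genotypes did not pass (adjusted p = 0.0986 and 0.625). ITGB6, an integrin chain that activates latent TGF-beta, was the single member that fell, from 104 ± 9.28 to 67 ± 12.7 CPM (log2 fold change -0.67, adjusted p = 0.00113). In WT rats 5 rose and 8 fell of 30 tested, beside 8.79% and 9.54% of all symbols. For the difference between genotypes, 19 were called with the knockout change more positive and 0 with it more negative of 31. The shares over all symbols were 7.1% and 7.64%. The levels of the whole list summed to 2660 to 3471 CPM in rats 17 to 24 and 6234 to 8759 CPM in rats 25 to 32.

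**Figure D3:**
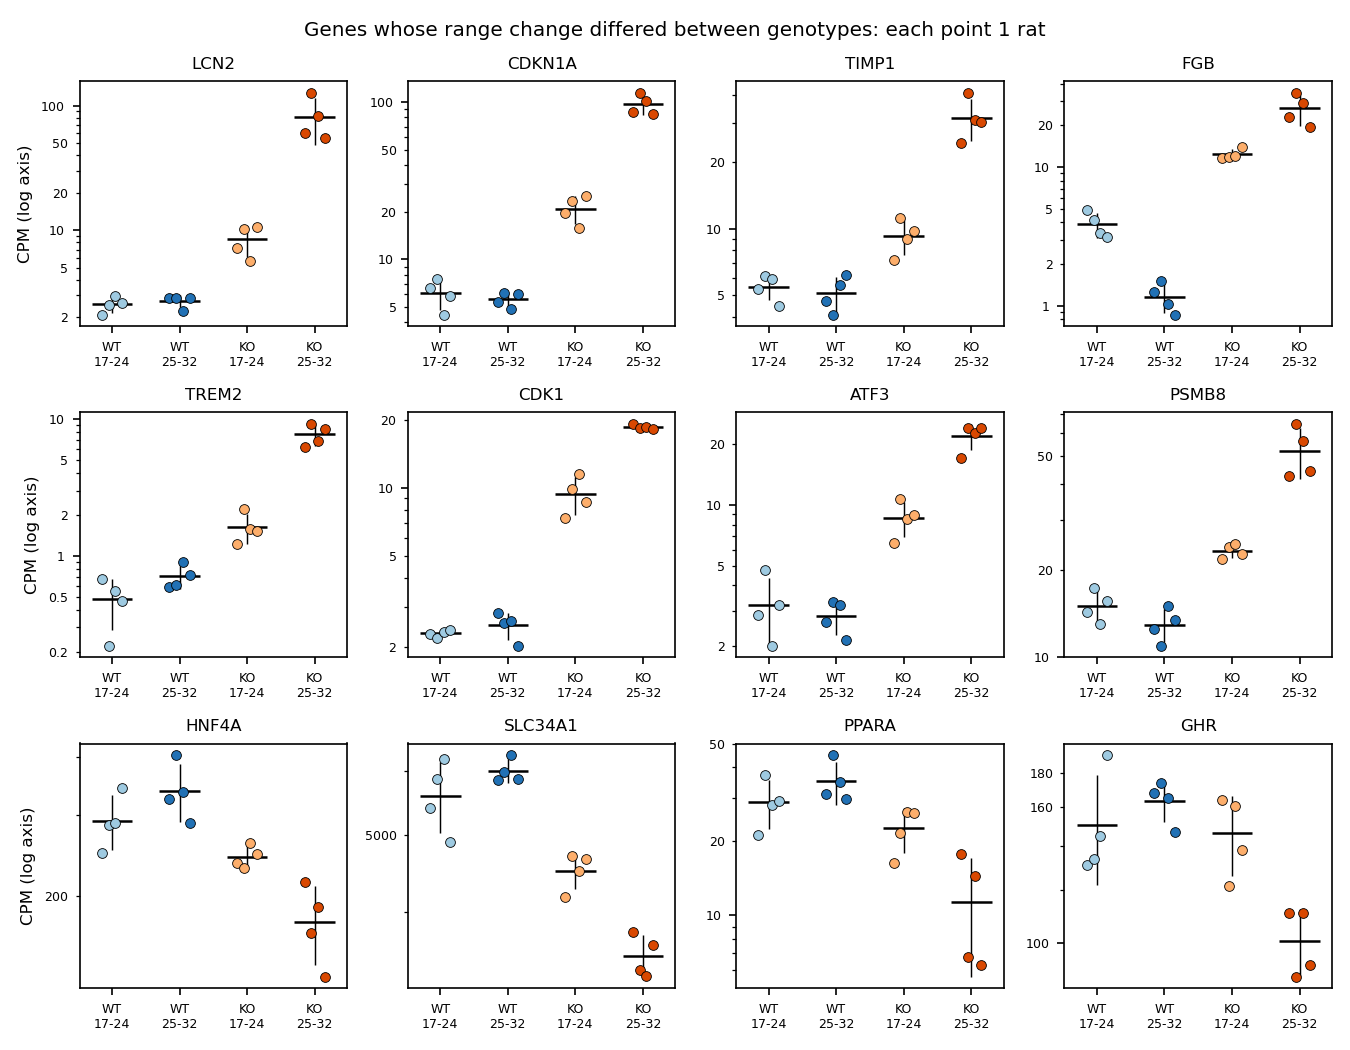
CPM of 12 symbols on a log axis in the 4 groups of rats; each point is 1 rat, horizontal bars are means and vertical bars ± SD (n = 4). LCN2 runs from 55.1 to 127 CPM in KO rats 25 to 32 and stays under 3 CPM in all WT rats, and HNF4A and SLC34A1 are lowest in KO rats 25 to 32.

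Cell cycle genes were higher in KO rats 25 to 32 as a group. Of this list, 26 rose and 0 fell of 34 tested, beside 22.6% and 23.4% of all symbols. The list's median log2 fold change was 0.71. CDK1, the kinase that drives entry into mitosis, was 7.35, 9.9, 11.5 and 8.7 CPM in rats 17 to 24 and 19.2, 18.4, 18.5 and 18.1 CPM in rats 25 to 32, with the higher-numbered rats tightly grouped and clear of the others. Its log2 fold change was 0.96 ± 0.12 (SE, adjusted p = 0.000208). WT rats held 2.29 ± 0.0763 and 2.49 ± 0.337 CPM, and the difference of the changes was 0.73 (adjusted p = 0.0124). CCNA2, the cyclin of S and G2 phase, went from 4.3, 5.23, 6.41 and 5.07 CPM to 9.57, 8.75, 8.89 and 8.35 CPM, a log2 fold change of 0.73 ± 0.13 (SE, adjusted p = 0.00136). TPX2, a spindle assembly factor, had the largest rise of the list, from 8.83 ± 0.821 to 18.7 ± 2.33 CPM (log2 fold change 1.06, adjusted p = 5.33e-05), and it also rose in WT rats, from 3.08 ± 0.366 to 5.41 ± 0.987 CPM. MKI67, the proliferation marker Ki-67, was 16.2, 22.7, 29.2 and 22.4 CPM in rats 17 to 24 and 31, 25.5, 34.9 and 24.5 CPM in rats 25 to 32. Its ranges overlapped, and its log2 fold change of 0.33 ± 0.16 (SE, adjusted p = 0.113) did not pass. Replication licensing genes rose as well: MCM3 by 0.96, MCM5 by 0.87, MCM6 by 0.72 and MCM2 by 0.48 on the log2 scale. Of the mitotic kinases, PLK1 rose by 1.03, AURKB by 1.03 and AURKA by 0.73. In WT rats 2 rose and 0 fell of 34, with a median of 0.053, beside 8.79% and 9.54% of all symbols. Between genotypes, 8 were called with the knockout change more positive and 0 with it more negative, beside 7.1% and 7.64% of all symbols. The summed level of the list was 284 to 392 CPM in rats 17 to 24 and 467 to 530 CPM in rats 25 to 32.

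To show the regulatory sequence in front of such genes, the promoters of CDK1, CDC20, PCNA and MCM2, the first members of the list that rose and had a RefSeq entry, are printed. Each is the 250 bases before the start of the gene in rat build GRCr8, 5′ to 3′ on the gene's strand, at chr20:19265043-19265292 on the plus strand for CDK1, and on the minus strand at chr5:137255800-137256049 for CDC20, chr3:139955821-139956070 for PCNA and chr4:122918095-122918344 for MCM2. Capitals mark CCAAT boxes (CCAAT, the NF-Y element), the cell cycle homology region (CHR, TTTGAA) and E2F elements (TTTCCCGC or TTTGGCGC), searched on both strands.
CDK1: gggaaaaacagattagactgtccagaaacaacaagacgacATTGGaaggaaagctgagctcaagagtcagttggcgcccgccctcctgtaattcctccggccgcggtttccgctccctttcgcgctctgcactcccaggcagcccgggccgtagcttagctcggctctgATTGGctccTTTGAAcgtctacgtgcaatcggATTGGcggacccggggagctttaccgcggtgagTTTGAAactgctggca
CDC20: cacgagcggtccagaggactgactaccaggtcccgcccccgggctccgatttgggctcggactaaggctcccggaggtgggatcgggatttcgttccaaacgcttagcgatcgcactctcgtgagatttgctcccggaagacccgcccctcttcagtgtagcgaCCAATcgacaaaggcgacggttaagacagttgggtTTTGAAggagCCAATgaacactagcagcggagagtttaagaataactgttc
PCNA: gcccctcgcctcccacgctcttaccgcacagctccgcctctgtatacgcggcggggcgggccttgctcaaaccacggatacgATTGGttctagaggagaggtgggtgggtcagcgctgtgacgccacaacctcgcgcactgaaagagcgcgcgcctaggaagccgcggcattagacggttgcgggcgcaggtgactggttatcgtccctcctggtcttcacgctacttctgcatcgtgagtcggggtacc
MCM2: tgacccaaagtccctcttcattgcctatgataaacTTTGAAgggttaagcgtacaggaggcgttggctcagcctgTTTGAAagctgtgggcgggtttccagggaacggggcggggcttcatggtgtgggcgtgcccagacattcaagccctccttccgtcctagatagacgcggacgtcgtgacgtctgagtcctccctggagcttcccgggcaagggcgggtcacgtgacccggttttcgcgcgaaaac
CDK1 holds 3 CCAAT boxes and 2 CHR elements, the nearest CHR starting 16 bases before the gene. CDC20 holds 2 CCAAT boxes, 86 and 41 bases before the start, with a CHR at 51 bases between them. PCNA holds 1 CCAAT box and MCM2 holds 2 CHR elements. None of these matches overlap. Neither of the 2 E2F forms searched lies in the 4 windows. Other forms were not searched, such as TTTCGCGC, which stands in the CDK1 and MCM2 windows. The E2F shares below therefore cover only the 2 forms searched. Of 26 tested list members with a promoter entry, 73.1% held a CCAAT box, 26.9% a CHR and 15.4% an E2F element. The shares were 34.9%, 10.2% and 2.38% over the 9108 tested genes with an entry, and 34.3%, 16% and 1.26% over all 27457 promoters. A match is only a match of letters.

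Inhibitors of the cell cycle rose alongside. Among p53 targets and CDK inhibitors, 13 rose and 2 fell of 21 tested, beside 22.6% and 23.4% of all symbols. The median of the list was 0.49. CDKN1A, which encodes the cell cycle inhibitor p21, was 19.6, 23.6, 15.8 and 25.2 CPM in rats 17 to 24 and 87.2, 115, 101 and 84.6 CPM in rats 25 to 32. There was no overlap, and the log2 fold change of 2.18 ± 0.14 (SE, adjusted p = 1.05e-05) compares with -0.0069 in WT rats, where the level was 6.08 ± 1.28 and 5.59 ± 0.606 CPM. The difference was 2.17 (adjusted p = 3.14e-05). MDM2, the ligase that degrades p53 and is itself a p53 target, rose from 70.2 ± 5.73 to 98.3 ± 13.4 CPM (log2 fold change 0.46, adjusted p = 0.00173). CDKN2B, which encodes p15, went from 0.185 ± 0.0629 to 0.497 ± 0.0734 CPM (log2 fold change 1.37, adjusted p = 0.00798), with under 20 reads in every rat. Also in this list, GDF15, a stress-induced cytokine, rose by 1.19 and PHLDA3, an inhibitor of AKT, by 1.43. The 2 members that fell were XPC, a DNA damage sensor, from 82 ± 4.02 to 60.6 ± 3.94 CPM, and CDKN1B, which encodes p27, by 0.18 on the log2 scale. In WT rats 3 rose and 2 fell of 19, beside 8.79% and 9.54% of all symbols. In the test of genotypes, 10 were called with the knockout change more positive and 1 with it more negative of 21. The shares over all symbols were 7.1% and 7.64%.

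Markers of immune cells were higher in KO rats 25 to 32. Of the macrophage and myeloid list, 24 rose and 0 fell of 30 tested, beside 22.6% and 23.4% of all symbols. The median of the list was 0.79. TREM2, a lipid-sensing receptor of macrophages, showed the largest rise, from 1.22, 2.19, 1.56 and 1.51 CPM to 6.2, 9.24, 6.94 and 8.47 CPM, with a log2 fold change of 2.23 ± 0.20 (SE, adjusted p = 2.92e-05) and a difference from WT rats of 1.54 (adjusted p = 0.0154). CD68, a lysosomal protein of macrophages, was 9.66, 10.1, 10.7 and 11.7 CPM in rats 17 to 24 and 20.5, 29.1, 24.1 and 21.1 CPM in rats 25 to 32, and the ranges did not overlap (log2 fold change 1.14 ± 0.11 SE, adjusted p = 6.15e-05). It rose in WT rats too (log2 fold change 0.63, adjusted p = 0.0242), and the difference did not pass (0.50, adjusted p = 0.113). CSF1R, the receptor for macrophage growth factor, rose from 43.8 ± 3.25 to 76.7 ± 9.09 CPM, and ADGRE1, the F4/80 antigen, from 10.4 ± 1.62 to 16.6 ± 1.71 CPM. GPNMB, a glycoprotein of lysosome-stressed macrophages, rose by 1.98, and the complement chains C1QA, C1QB and C1QC by 1.23, 1.32 and 1.09 on the log2 scale. The summed list was 1700 to 1851 CPM in rats 17 to 24 and 2323 to 3060 CPM in rats 25 to 32. In WT rats 9 rose and 1 fell of 30, with a median of 0.30, beside 8.79% and 9.54% of all symbols. For the difference between genotypes, 10 were called with the knockout change more positive and 0 with it more negative. The shares over all symbols were 7.1% and 7.64%.

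Lymphocyte genes were read at low levels and 12 of 22 rose in KO rats, with none lower and a median of 0.72. In WT rats 5 rose and 1 fell of 19, with a median of 0.54. Of all symbols, 22.6% rose and 23.4% fell in KO rats, and 8.79% and 9.54% in WT rats. Between genotypes, 3 of 22 were called with the KO change more positive and 1 with it more negative, beside 7.1% and 7.64% of all symbols. CD3E, a chain of the T cell receptor complex, was 1.22, 2.01, 1.45 and 1.25 CPM in rats 17 to 24 and 4.24, 5.68, 3.83 and 4.25 CPM in rats 25 to 32, without overlap (log2 fold change 1.58 ± 0.20 SE, adjusted p = 0.000224). It rose in WT rats as well, from 0.529 ± 0.132 to 1.17 ± 0.202 CPM, and the genotypes did not pass the test of a difference (0.32, adjusted p = 0.521). CD3G went from 1.05 ± 0.391 to 3.31 ± 0.818 CPM and CD3D from 0.869 ± 0.332 to 1.91 ± 0.48 CPM. In the list of chemokines, cytokines and complement, 21 rose and 1 fell of 31 tested in KO rats (median 0.77). In WT rats 7 rose and 1 fell of 29 (median 0.35). Both stand beside the same shares of all symbols in each genotype. C3, the central complement component, was 16.7, 15.5, 20.4 and 21.4 CPM in rats 17 to 24 and 45.7, 63, 47.8 and 34.5 CPM in rats 25 to 32, a log2 fold change of 1.34 ± 0.17 (SE, adjusted p = 0.000258) that differed from WT rats by 0.88 (adjusted p = 0.0301). C4A, of the classical complement pathway, rose from 11.1, 17.3, 15.4 and 17.2 CPM to 50.9, 70, 57.8 and 45.2 CPM, although its counts are not all whole (log2 fold change 1.85 ± 0.15 SE, adjusted p = 3.03e-05). CCL2, which attracts monocytes, went from 0.818 ± 0.182 to 1.77 ± 0.398 CPM (log2 fold change 1.09, adjusted p = 0.00402; counts not all whole), and CCL7 was 0.393 ± 0.104 CPM in rats 17 to 24 and 0.703 ± 0.217 CPM in rats 25 to 32 without passing (adjusted p = 0.0532). IL33, an alarmin, was the member that fell in KO rats, from 168 ± 5.49 to 147 ± 8.71 CPM (log2 fold change -0.22, adjusted p = 0.0133). That call was lost in the fit of all 16 rats (adjusted p between 0.00469 and 0.0562 over all alternative settings).

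Interferon genes did not move as a block. Of the interferon and antigen presentation list, 9 rose and 1 fell of 26 tested, beside 22.6% and 23.4% of all symbols. The median of the list was 0.20. PSMB8, a subunit of the immunoproteasome, led the rises at 21.9, 24.1, 24.8 and 22.8 CPM in rats 17 to 24 and 42.6, 64.9, 56.3 and 44.5 CPM in rats 25 to 32, with a log2 fold change of 1.12 ± 0.12 (SE, adjusted p = 8.36e-05) and a difference from WT rats of 1.23 (adjusted p = 0.000435). PSMB9, PSMB10 and TAP1, of the same antigen-processing machinery, rose by 0.89, 0.99 and 0.57. IRF1, a transcription factor of interferon gamma response, rose from 30.9 ± 4.27 to 49.9 ± 8.56 CPM (log2 fold change 0.66, adjusted p = 0.00181). Among type I interferon genes, ISG15, a ubiquitin-like modifier, rose by 0.92, while others did not pass: IRF7 was 75.7 ± 12.2 CPM in rats 17 to 24 and 83.8 ± 24.2 CPM in rats 25 to 32 (adjusted p = 0.618), and MX1, OAS2 and IFIT3 had log2 fold changes of -0.0068, 0.016 and -0.061. IFIT2 fell from 23.8 ± 2.79 to 18.5 ± 3.63 CPM with overlapping ranges (adjusted p = 0.0277), a call lost when all 16 rats shared 1 fit (adjusted p between 0.00883 and 0.125 over all alternative settings).

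Matrix genes were higher for 19 and lower for 3 of 38 tested members, beside 22.6% and 23.4% of all symbols. The median of the list was 0.31. COL1A1, the main chain of fibrillar type I collagen, was 29.1, 39, 38.7 and 38.9 CPM in rats 17 to 24 and 70.6, 57.6, 45.8 and 51.1 CPM in rats 25 to 32 (log2 fold change 0.61 ± 0.14 SE, adjusted p = 0.00591). It rose in WT rats too, from 23.7 ± 1.94 to 28.8 ± 2.17 CPM (log2 fold change 0.39, adjusted p = 0.0051). The difference between genotypes did not pass (0.20, adjusted p = 0.41). COL3A1 rose from 74.9 ± 13.1 to 114 ± 14.1 CPM and COL1A2 from 35.6 ± 7.5 to 47.5 ± 3.4 CPM. In both, all rats of the higher-numbered range lay above all others. MGP (matrix Gla protein) and MMP2 (a gelatinase) each rose by 0.90 on the log2 scale, S100A4 by 1.02 and FN1 (fibronectin) by 0.50. The 3 that fell were MMP9, another gelatinase, from 27.1 ± 12.4 to 14.4 ± 3.49 CPM with overlapping ranges (adjusted p = 0.0281, a call lost without the filter on low counts), PDGFRA, the stromal growth factor receptor, by 0.38 and TIMP3 by 0.37. In WT rats 2 rose and 3 fell of 38, beside 8.79% and 9.54% of all symbols. Between KO and WT rats, 12 were called with the knockout change more positive and 1 with it more negative. The shares over all symbols were 7.1% and 7.64%.

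Of the proximal tubule's transport and uptake list, 4 rose and 8 fell of 27 tested in KO rats (median -0.083), beside 22.6% and 23.4% of all symbols. In WT rats 10 rose and 1 fell of 27 (median 0.25), beside 8.79% and 9.54% of all symbols. Without KO rat 30 the count that rose in KO rats was 7. In the test between genotypes, none was called with the KO change more positive and 12 of 27 with it more negative, beside 7.1% and 7.64% of all symbols. SLC34A1, the main phosphate transporter, was 4173, 4701, 4504 and 4657 CPM in rats 17 to 24 and 3773, 3380, 3322 and 3632 CPM in rats 25 to 32. All 4 higher-numbered rats were lower, with a log2 fold change of -0.38 ± 0.072 (SE, adjusted p = 0.00229), while WT rats held 5595 ± 578 and 6004 ± 206 CPM and the difference was -0.60 (adjusted p = 0.00253). CUBN, the endocytic receptor cubilin, fell from 744, 867, 926 and 889 CPM to 470, 424, 461 and 398 CPM (log2 fold change -0.99 ± 0.074 SE, adjusted p = 1.52e-05). It fell in WT rats too, from 1040 ± 170 to 508 ± 71.2 CPM (difference -0.072, adjusted p = 0.784). AMN, cubilin's membrane partner, rose instead, from 185 ± 10 to 243 ± 29.1 CPM. SLC5A2, the glucose transporter SGLT2, was 637 ± 14.7 CPM in rats 17 to 24 and 634 ± 40 CPM in rats 25 to 32 and did not pass (log2 fold change -0.034, adjusted p = 0.713), and SLC2A2, the glucose transporter GLUT2, rose from 123 ± 20.9 to 198 ± 22.3 CPM. Transporters that fell in KO rats also included SLC4A4 (bicarbonate, -0.84), SLC9A3 (sodium-proton exchange, -0.73) and SLC6A19 (neutral amino acids, -0.68). In WT rats AQP1, a water channel, and SLC22A6, an organic anion carrier, rose by 0.57 and 1.12, against -0.042 and 0.17 in KO rats.

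Among enzymes and identity factors of the proximal tubule, 3 rose and 10 fell of 26 tested in KO rats (median -0.11). In WT rats 11 rose and 6 fell of 26 (median 0.31). Of all symbols, 22.6% rose and 23.4% fell in KO rats, and 8.79% and 9.54% in WT rats. HNF4A, the transcription factor that maintains proximal tubule identity, was 236, 230, 260 and 246 CPM in rats 17 to 24 and 214, 166, 189 and 133 CPM in rats 25 to 32, a log2 fold change of -0.50 ± 0.11 (SE, adjusted p = 0.00583). WT rats held 291 ± 39.1 and 338 ± 49.6 CPM, and the difference was -0.82 (adjusted p = 0.00537). MEP1B, a brush border protease, fell from 65.2 ± 4.88 to 32 ± 9.3 CPM in KO rats and from 72.6 ± 17.2 to 34.8 ± 4.63 CPM in WT rats. CYP24A1, which inactivates vitamin D, had the list's largest rise, from 226, 200, 177 and 191 CPM to 343, 420, 264 and 243 CPM (log2 fold change 0.65, adjusted p = 0.00876), and this call was lost when all 16 rats shared 1 fit (adjusted p between 0.00022 and 0.274 over all alternative settings). In the straight segment (S3), 3 rose and 7 fell of 14 tested in KO rats, beside the same shares of all symbols. SLC5A10 and SLC7A13, carriers of sugars and of amino acids in S3, fell from 99.1 ± 5.64 to 51 ± 13.6 CPM and from 66.5 ± 13.7 to 18.9 ± 5.93 CPM. Both fell in WT rats too. The SLC7A13 counts were not all whole. SERPINA1, an antitrypsin listed with S3, rose from 0.125 ± 0.0729 to 0.925 ± 0.229 CPM on at most 34 reads in a rat.

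Podocyte genes fell in both genotypes, and endothelial genes fell in part. Of the podocyte list, 8 of 13 fell and none rose in KO rats (median -0.72), and 8 fell in WT rats (median -0.42). Of all symbols, 23.4% fell in KO rats and 9.54% in WT rats. NPHS1, nephrin of the slit diaphragm, was 169, 194, 172 and 202 CPM in rats 17 to 24 and 115, 105, 132 and 89.7 CPM in rats 25 to 32 (log2 fold change -0.77 ± 0.093 SE, adjusted p = 0.000171). SYNPO, synaptopodin of the foot process, fell from 93.5 ± 8.73 to 53.1 ± 11.8 CPM, but its values are identical to those listed for MYOZ3. The podocyte list summed to 1841 to 2053 CPM in rats 17 to 24 and 1228 to 1617 CPM in rats 25 to 32, so the 2 ranges did not overlap. Of the endothelial list, 12 of 21 fell and none rose in KO rats (median -0.33), and 8 fell in WT rats (median -0.19). These counts stand beside the same shares of all symbols. KDR, the main VEGF receptor, fell from 162, 156, 164 and 164 CPM to 117, 98.8, 120 and 103 CPM, and FLT1, a second VEGF receptor, from 53.2 ± 4.94 to 32.7 ± 10.5 CPM. CDH5, the endothelial cadherin, fell from 24 ± 1.01 to 18.7 ± 2.59 CPM. KDR was called lower in WT rats, and FLT1 and CDH5 were not (adjusted p = 0.148 and 0.466). Haemoglobin reads mark blood left in the tissue. HBB was 12.6, 18.8, 24.6 and 31.7 CPM in rats 17 to 24 and 25.7, 21.8, 3.93 and 18.8 CPM in rats 25 to 32, with overlapping ranges (adjusted p = 0.619), and HBA1 and HBA2, whose counts were not all whole, did not pass either. SLC4A1, an anion exchanger of red cells and also of intercalated cells of the collecting duct, fell from 359 ± 33.8 to 245 ± 54.5 CPM with overlapping ranges, and fell in WT rats too (log2 fold change -0.50, adjusted p = 0.003). The part of these cell types in other results was not tested.

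In the thick ascending limb and distal tubule, 2 rose and 9 fell of 15 tested in KO rats. In WT rats 0 rose and 9 fell of 15. Of all symbols, 22.6% rose and 23.4% fell in KO rats, and 8.79% and 9.54% in WT rats. SLC12A1, the target of loop diuretics, fell from 648 ± 37.8 to 426 ± 63.4 CPM, and fell in WT rats too. UMOD went from 2505, 2716, 2485 and 2618 CPM to 2661, 3559, 3307 and 3507 CPM, a rise of 0.31 (adjusted p = 0.0183) with overlapping ranges, and WT rats went down from 2571 ± 263 to 1878 ± 186 CPM. The difference was 0.65 (adjusted p = 0.0079). CLDN19, a tight junction protein of the thick limb, rose from 25.1 ± 3.24 to 35 ± 4.57 CPM. KLK1, a kallikrein of the connecting tubule, had the list's largest fall, from 3.81 ± 1.5 to 0.411 ± 0.0585 CPM (log2 fold change -3.23, adjusted p = 7.8e-05; counts not all whole). In the collecting duct, 2 rose and 8 fell of 19 tested in KO rats (median -0.24). In WT rats 1 rose and 11 fell of 19 (median -0.46). Both stand beside the same shares of all symbols. Between genotypes, 4 were called with the KO change more positive and 2 with it more negative, beside 7.1% and 7.64% of all symbols. AQP3 was 160 ± 15.3 CPM in KO rats 17 to 24 and 153 ± 15.6 CPM in KO rats 25 to 32 and did not pass. It rose in WT rats (log2 fold change 0.54, adjusted p = 0.00851), and the difference was -0.64 (adjusted p = 0.0132). AQP4, another water channel, fell in KO rats from 18.8 ± 2.54 to 14 ± 2.23 CPM with overlapping ranges. That call was lost in the fit of all 16 rats (adjusted p between 0.00342 and 0.0704 over all alternative settings). SLC26A7, an anion exchanger of intercalated cells, fell from 5.1 ± 0.259 to 2.77 ± 0.602 CPM, and KRT7, a keratin of the duct, rose from 179 ± 14.7 to 278 ± 26.4 CPM. SCNN1A, a subunit of the sodium channel ENaC, was 164 ± 25.5 CPM in rats 17 to 24 and 138 ± 17.4 CPM in rats 25 to 32 (adjusted p = 0.0522), and was called with DESeq2 and without the filter on low counts (adjusted p between 0.0304 and 0.145 over all alternative settings).

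**Figure D4:**
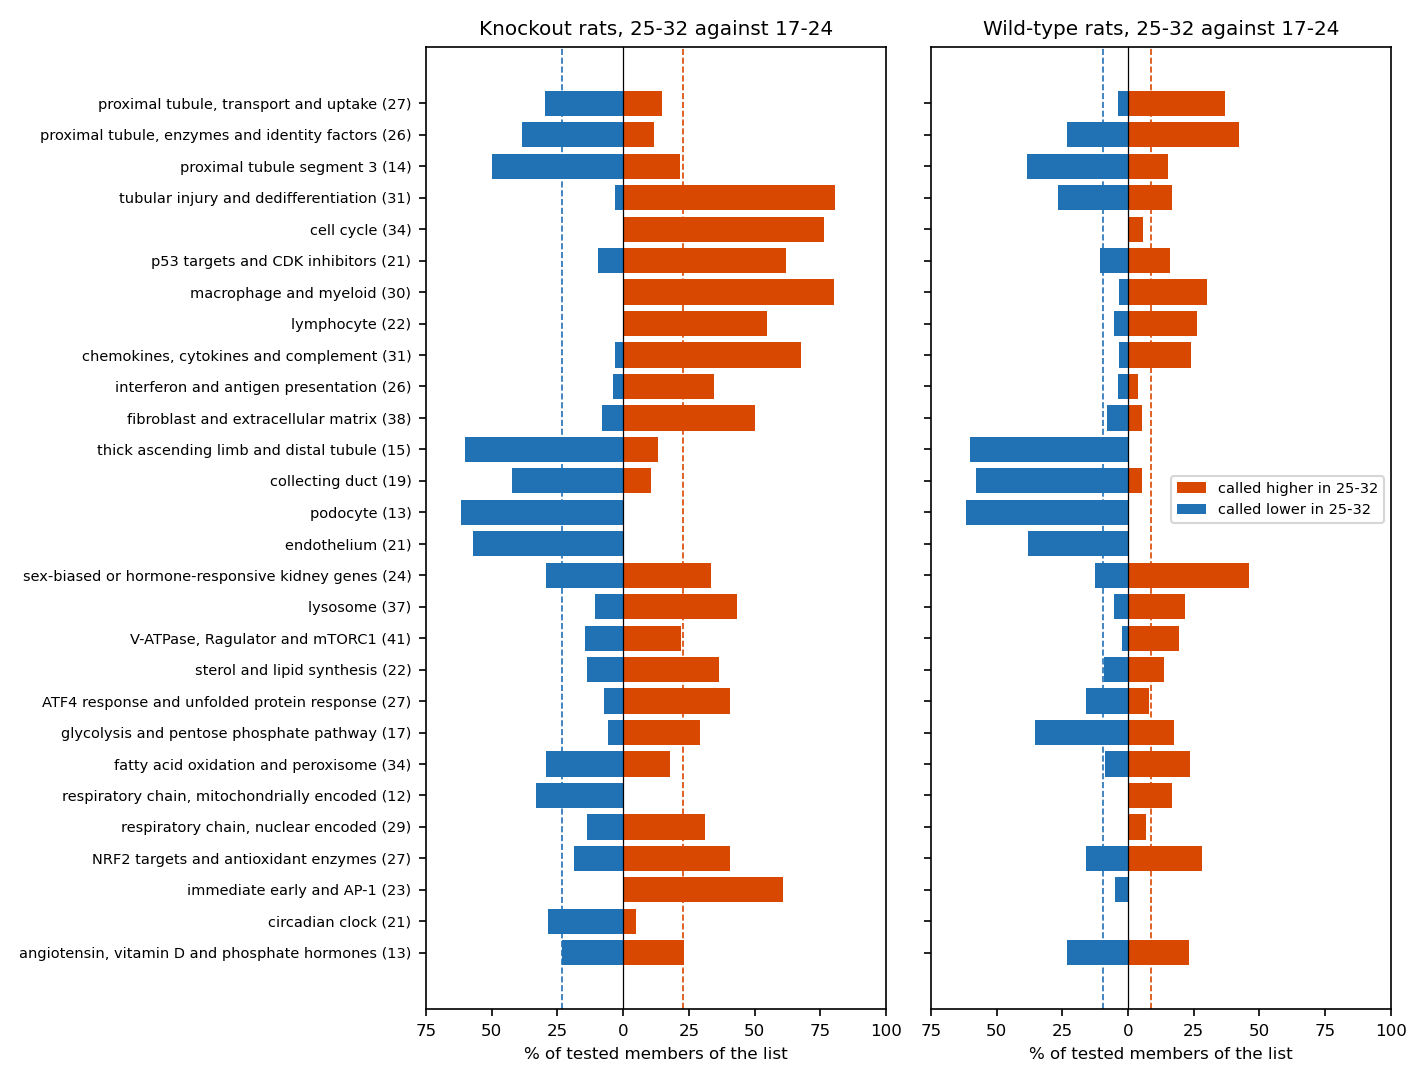
Percent of tested members of each gene list called higher (orange, to the right) or lower (blue, to the left) in rats 25 to 32, in KO rats (left panel) and WT rats (right panel); the number in brackets is the members tested in KO rats, and dashed lines mark the percent over all symbols tested (22.6 and 23.4 in KO, 8.79 and 9.54 in WT rats). Injury, cell cycle, macrophage and immediate early lists extend past the line in KO rats, and podocyte, thick limb, collecting duct and endothelial lists extend to the left in both.

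Most of the largest fold changes in KO rats were also called in WT rats in the same direction, the exceptions being NXPE2 and HYAL1. MPPED1, a metallophosphoesterase, had 0.0642, 0, 0 and 0 CPM in rats 17 to 24, 2 reads in all, and 2.63, 5.89, 7.07 and 4.7 CPM in rats 25 to 32, 579 reads in all. The ratio of these reads was 299, with a counting interval of 82.4 to 2475. MLC1, a membrane protein known from astrocytes, had likewise 2 reads against 554, a ratio of 286 (counting interval 78.8 to 2368). WT rats showed the same split, with no MPPED1 read in rats 17 to 24. GC, the vitamin D binding protein, went from 0.128, 0.354, 0.507 and 0.225 CPM to 6.32, 10.3, 8.89 and 12.2 CPM (log2 fold change 4.94 ± 0.33 SE, adjusted p = 6.86e-06). GUCY1B2, a guanylate cyclase subunit, went from 0.834, 0.954, 0.471 and 0.77 CPM to 13.6, 22.1, 19.1 and 25.4 CPM (log2 fold change 4.69 ± 0.25 SE, adjusted p = 2.16e-06). SLC22A10, an organic anion carrier, was 2.25, 1.41, 2.68 and 1.19 CPM in rats 17 to 24 and 37.2, 50.5, 52.1 and 52.5 CPM in rats 25 to 32, a log2 fold change of 4.65 ± 0.22 (SE, adjusted p = 2.16e-06), and 1.86 ± 0.493 and 76.9 ± 12.4 CPM in the WT ranges. These symbols were chosen for KO ranges that do not overlap, and their WT ranges did not overlap either. None passed the test of a difference between genotypes. That difference was -3.03 ± 2.89 (SE) for MPPED1, with almost no reads in rats 17 to 24, so the test says little there.

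AGT, which encodes angiotensinogen, rose from 1.38, 1.13, 1.09 and 1.09 CPM to 9.76, 20, 12.2 and 18.7 CPM, a log2 fold change of 3.66 ± 0.26 (SE, adjusted p = 1.54e-05), with 3.70 in WT rats. TFF3, a trefoil peptide of mucosal repair, rose from 9.31 ± 3.41 to 103 ± 38.8 CPM, SLC51B, a subunit of the bile acid exporter, from 2.35 ± 0.436 to 25.6 ± 4.42 CPM, and CACNG5, a calcium channel subunit, from 0.113 ± 0.064 to 4.05 ± 0.938 CPM. Lower levels with the same pattern were seen for APOH (a plasma glycoprotein, log2 fold change 3.94) and RARRES1 (a retinoid-responsive gene, 3.42). All 6 were called in WT rats in the same direction, with no difference called between genotypes.

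The largest fall was that of ADH1A, an alcohol dehydrogenase, whose values are identical to those listed for ADH6. It went from 149, 82.5, 178 and 115 CPM to 0.385, 0.388, 1.26 and 0.324 CPM (log2 fold change -7.79 ± 0.38 SE, adjusted p = 2.16e-06), and WT rats went from 104 ± 46.5 to 0.624 ± 0.467 CPM. COL17A1, a collagen of epithelial anchoring, was 26.9, 35.8, 57.6 and 33.1 CPM in rats 17 to 24 and 2.05, 2.29, 1.42 and 1.54 CPM in rats 25 to 32 (log2 fold change -4.41 ± 0.26 SE, adjusted p = 6.45e-06). SLC22A7, the organic anion transporter OAT2, was 11.3, 14.6, 16.9 and 17.1 CPM in rats 17 to 24 and 0.706, 2.47, 1.42 and 1.62 CPM in rats 25 to 32 (log2 fold change -3.30 ± 0.28 SE, adjusted p = 3.49e-05). CNR1, the cannabinoid receptor, fell from 9.87 ± 5.09 to 0.882 ± 0.463 CPM, NKX1-2, a homeobox gene, from 3.32 ± 2.07 to 0.333 ± 0.171 CPM, and ARMC3 from 8.66 ± 2.83 to 1.14 ± 0.248 CPM. OACYLP, listed under a pseudogene's symbol, fell from 19.9 ± 3.81 to 3.11 ± 0.397 CPM, and AZGP1, a zinc-binding secreted glycoprotein, from 47.5 ± 15 to 8.07 ± 0.939 CPM. Each of these was called lower in WT rats too. EFR3B, a membrane anchor of a lipid kinase, fell from 7.01 ± 4.25 to 1.2 ± 0.407 CPM. In rats 17 to 24 EFR3B was 11.1, 3.15, 10.3 and 3.53 CPM. NKX1-2 was 5.13, 1.84, 5.07 and 1.25 CPM there, so rats 18 and 22 were high in both. NXPE2 and HYAL1, a hyaluronidase, varied within the lower-numbered range: NXPE2 was 2.09, 0.424, 6.31 and 0.706 CPM and HYAL1 144, 20, 73.8 and 21.4 CPM, with rats 18 and 22 high in both, and in the higher-numbered range they were 0.0642, 0.141, 0.231 and 0.122 CPM and 12.8, 7.79, 16.9 and 7.54 CPM. In WT rats NXPE2 had too few reads to test, at 0.13 ± 0.168 and 0.191 ± 0.0425 CPM, and the difference between genotypes was -4.73 (adjusted p = 0.0466). HYAL1 was 44.8 ± 54.7 and 12.4 ± 3.5 CPM in WT rats and not called (adjusted p = 0.188). In KO rats its adjusted p lay between 0.00121 and 0.0847 over all alternative settings.

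**Figure D5:**
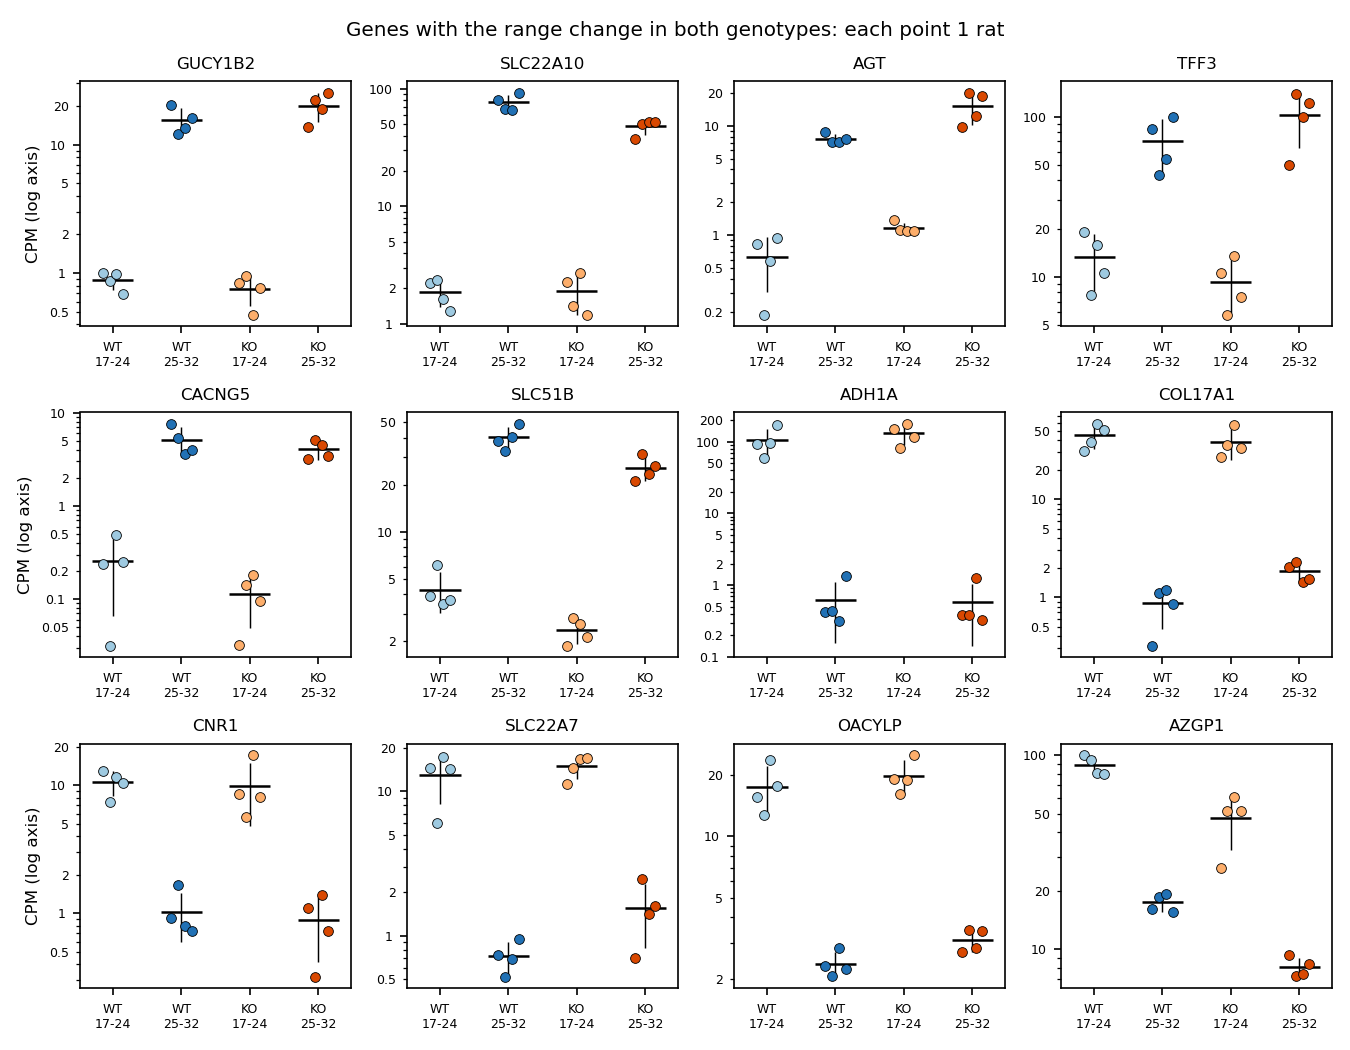
CPM of 12 symbols on a log axis in the 4 groups of rats; each point is 1 rat, horizontal bars are means and vertical bars ± SD (n = 4). In both genotypes rats 25 to 32 are apart from rats 17 to 24, above them for GUCY1B2, SLC22A10, AGT, TFF3, CACNG5 and SLC51B and below them for the other 6. In KO rats this gap was a condition for choosing the symbols.

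The labels give no sex, and genes whose kidney levels are known to follow sex hormones were therefore read out. Of that list, 8 rose and 7 fell of 24 tested in KO rats, beside 22.6% and 23.4% of all symbols, and 11 rose and 3 fell of 24 in WT rats, beside 8.79% and 9.54% of all symbols. Shared by both genotypes were the falls of SLC22A7 and SLC7A13 given above, and the rise of CYP2D6, a drug-metabolising enzyme, from 0.225, 0.354, 0.616 and 0.289 CPM to 1.32, 4.48, 2.45 and 6.68 CPM (counts not all whole). HSD17B2, which inactivates sex steroids, fell by 1.52 in KO rats and by 1.41 in WT rats on the log2 scale. ESR1, the oestrogen receptor, was 6.39 ± 1.3 CPM in rats 17 to 24 and 6.73 ± 1.91 CPM in rats 25 to 32 in KO rats and did not pass, but rose from 6.32 ± 0.55 to 17.3 ± 5.25 CPM in WT rats (difference -1.51, adjusted p = 0.00309). GHR, the growth hormone receptor, fell from 147 ± 19.8 to 101 ± 11.7 CPM in KO rats (log2 fold change -0.57, adjusted p = 0.00236). EIF1AY was the one symbol tested from the Y-linked list, at 36.5 ± 0.734 CPM in rats 17 to 24 and 38.2 ± 5.41 CPM in rats 25 to 32 (adjusted p = 0.73). Of 6 tested genes of the X-linked list, USP9X and ZFX fell, by 0.53 and 0.46, and DDX3X, with counts not all whole, was 6.35 ± 2.33 CPM in rats 17 to 24 and 4.75 ± 2.96 CPM in rats 25 to 32. Whether the ranges differ in sex, age or treatment was not tested.

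Cystinosin resides in the lysosome. Of the lysosomal list, 16 rose and 4 fell of 37 tested in KO rats, beside 22.6% and 23.4% of all symbols. Its median was 0.15, and it summed to 12050 to 12991 CPM in KO rats 17 to 24 and 14231 to 16278 CPM in KO rats 25 to 32. The count that rose was 12 without KO rat 28. In WT rats 8 rose and 2 fell of 37, beside 8.79% and 9.54% of all symbols. Between genotypes, 5 were called with the KO change more positive and 1 with it more negative, beside 7.1% and 7.64% of all symbols. CTSZ, a cysteine cathepsin, had the largest rise, from 24.7, 27.3, 27 and 26.8 CPM to 47.8, 72, 57.6 and 52.9 CPM (log2 fold change 1.10 ± 0.11 SE, adjusted p = 5.33e-05). The difference from WT rats was 0.88 (adjusted p = 0.00485). CTSA, a protective carboxypeptidase, rose from 1825 ± 125 to 2229 ± 140 CPM, and it rose in WT rats too. CTSD, the main aspartic protease, rose by 0.83, NPC2, a cholesterol carrier, by 0.61, and CD63, a membrane protein of late endosomes, by 0.51. LAMP1, a major membrane protein of the lysosome, was 1566 ± 24.9 CPM in rats 17 to 24 and 1664 ± 59.3 CPM in rats 25 to 32 and LAMP2 was 280 ± 9.62 CPM in rats 17 to 24 and 260 ± 22.7 CPM in rats 25 to 32, and neither passed (adjusted p = 0.426 and 0.0973). TFEB, the transcription factor of lysosomal genes, rose by 0.29, and its relative MITF fell from 12.1 ± 1.87 to 7.64 ± 2.03 CPM with overlapping ranges (log2 fold change -0.69, adjusted p = 0.00799). Macrophages also make cathepsins and CD63, and their markers moved in the same direction; their part in this list was not tested.

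Of the V-ATPase, Ragulator and mTORC1 list, 9 rose and 6 fell of 41 tested, beside 22.6% and 23.4% of all symbols. The median of the list was 0.046. The share that rose was close to that of all symbols, and the count was 6 without KO rat 22, 24 or 28 and 15 without KO rat 30. MTOR, the kinase of the complex, was 96.1, 103, 106 and 111 CPM in rats 17 to 24 and 102, 94.5, 107 and 91.9 CPM in rats 25 to 32, with overlapping ranges, and did not pass (log2 fold change -0.10 ± 0.058 SE, adjusted p = 0.176). WT rats rose from 111 ± 7.53 to 126 ± 10.5 CPM, and the difference was -0.40 (adjusted p = 0.00841). RPTOR and MLST8, its partners, did not pass (adjusted p = 0.153 and 0.111). EIF4EBP1, a translation repressor phosphorylated by mTORC1, rose from 12.2, 12.7, 11 and 10.1 CPM to 14.6, 20.9, 15.7 and 17.9 CPM (log2 fold change 0.56 ± 0.13 SE, adjusted p = 0.00572). DEPTOR, an inhibitor of mTOR, fell from 22.4, 24.1, 26.7 and 25.1 CPM to 15.6, 10.8, 19 and 7.37 CPM (log2 fold change -0.93 ± 0.22 SE, adjusted p = 0.0069), and the difference from WT rats did not pass (-0.66, adjusted p = 0.134). TSC1, a brake on mTORC1, fell by 0.52. Of other list members, TSC2, TBC1D7, DEPDC5, NPRL2 and NPRL3 were not called, SESN1 rose by 0.25 and RPS6KB1 fell by 0.38. These are transcript levels, and kinase activity was not measured here.

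Stress genes rose in part. In the ATF4 and unfolded protein response list, 11 rose and 2 fell of 27 tested (median 0.17), against 2 rose and 4 fell of 25 in WT rats. Of all symbols, 22.6% rose and 23.4% fell in KO rats, and 8.79% and 9.54% in WT rats. ATF3, a stress-induced transcription factor, was 6.51, 10.7, 8.52 and 8.89 CPM in rats 17 to 24 and 17.2, 24.1, 22.8 and 24.1 CPM in rats 25 to 32 (log2 fold change 1.32 ± 0.15 SE, adjusted p = 0.000121), with 3.2 ± 1.15 and 2.81 ± 0.535 CPM in WT rats and a difference of 1.38 (adjusted p = 0.00537). DDIT3, which encodes CHOP, rose from 21.6 ± 1.87 to 38.1 ± 4.42 CPM, with a difference of 0.67 (adjusted p = 0.00698). ATF4 itself was 187 ± 17.7 CPM in rats 17 to 24 and 221 ± 14.3 CPM in rats 25 to 32 and did not pass (adjusted p = 0.0552), though it did in 6 of the 9 other settings that kept all 8 rats (adjusted p between 0.0138 and 0.151 over all alternative settings). TRIB3, CHAC1 and ASNS, classical ATF4 targets, rose by 1.52, 1.55 and 0.80. PSAT1, of serine synthesis, fell from 245 ± 33.3 to 135 ± 16.4 CPM (log2 fold change -0.88, adjusted p = 0.000278). SLC7A11, the cystine importer of the cell surface, went from 0.353, 0.813, 0.689 and 0.899 CPM to 1.57, 2.26, 2.51 and 2.03 CPM (log2 fold change 1.57 ± 0.27 SE, adjusted p = 0.0012); in WT rats it had too few reads to test by themselves, and the difference did not pass (1.32, adjusted p = 0.473). Of the immediate early and AP-1 list, 14 of 23 rose and none fell (median 0.47), against none higher in WT rats, where 1 of 20 fell. These counts stand beside the same shares of all symbols. FOSL1 rose from 0.572 ± 0.262 to 1.68 ± 0.336 CPM and FOSB from 0.563 ± 0.206 to 1.4 ± 0.577 CPM, while FOS was 4.38 ± 1.9 CPM in rats 17 to 24 and 5.99 ± 0.652 CPM in rats 25 to 32 without passing (adjusted p = 0.205). JUN and MYC, growth-response transcription factors, rose by 0.68 and 0.91.

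In the NRF2 and antioxidant list, 11 rose and 5 fell of 27 tested (median 0.18), beside 22.6% and 23.4% of all symbols. GCLC, the rate-limiting enzyme of glutathione synthesis, rose from 420, 319, 420 and 403 CPM to 580, 965, 776 and 874 CPM (log2 fold change 1.01 ± 0.15 SE, adjusted p = 0.000845), with 344 ± 86.7 and 801 ± 190 CPM in the WT ranges. SOD3, the extracellular superoxide dismutase, fell from 828 ± 27 to 482 ± 75.7 CPM and fell in WT rats too. HMOX1, haem oxygenase, rose from 11.9 ± 1.7 to 21 ± 2.03 CPM, and NQO1, a typical NRF2 target, was 11 ± 0.867 CPM in rats 17 to 24 and 12.7 ± 1.39 CPM in rats 25 to 32 (adjusted p = 0.154). Of glycolysis and pentose phosphate genes, 5 rose and 1 fell of 17 tested, beside the same shares of all symbols. LDHA, which makes lactate, rose from 244 ± 14 to 392 ± 37.9 CPM (log2 fold change 0.66, adjusted p = 0.000188), with a difference from WT rats of 0.53 (adjusted p = 0.00548), and PFKL, the liver-type phosphofructokinase, from 84.3 ± 3.52 to 102 ± 6.41 CPM. HK2 and PFKP did not pass (adjusted p = 0.207 and 0.102), and PFKFB3 fell from 16.2 ± 0.8 to 12.3 ± 3.3 CPM with overlapping ranges, a call lost with upper-quartile scaling. In the sterol list, 8 rose and 3 fell of 22 tested, beside the same shares of all symbols. Without KO rat 18, 24, 26 or 32, 5 of the list rose. SQLE, squalene epoxidase, rose from 19.2 ± 0.889 to 32.3 ± 1.61 CPM. HMGCS1, an early enzyme of the pathway, did not pass, and ME1, which supplies NADPH, fell from 185 ± 7.28 to 124 ± 8.35 CPM.

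Of fatty acid oxidation and peroxisome genes, 6 rose and 10 fell of 34 tested, beside 22.6% and 23.4% of all symbols. For 11 of 34 the change was more negative in KO than in WT rats, beside 7.64% of all symbols. The count that rose was 2 without KO rat 22, 24, 26 or 28, 3 without rat 32, 12 without rat 30 and 10 with upper-quartile scaling. PPARA, the transcription factor of fatty acid oxidation, was 16.4, 21.7, 26.4 and 26.1 CPM in rats 17 to 24 and 17.8, 6.74, 14.5 and 6.28 CPM in rats 25 to 32. The ranges overlapped through rat 18, and the log2 fold change was -1.02 ± 0.30 (SE, adjusted p = 0.0199). WT rats held 28.9 ± 6.56 and 35.2 ± 6.96 CPM, and the difference was -1.42 (adjusted p = 0.0202). For PPARA, KO rats 28 and 32 lay below KO rats 26 and 30. The same order was seen for PPARGC1A, DEPTOR, CLOCK, PPP1R16B, FLT1, SLC8A1, HNF4A and MT-ND4L, picked after their values were seen. It was not seen for SLC34A1 or MEP1B, which also fell. CPT1A, the entry step of oxidation, was 276 ± 39.1 CPM in rats 17 to 24 and 282 ± 27.3 CPM in rats 25 to 32 (adjusted p = 0.973), CPT2 rose from 52.3 ± 2.05 to 61.5 ± 4.26 CPM, except in the fit of all 16 rats, and ACADM was 465 ± 38.7 CPM in rats 17 to 24 and 529 ± 26.2 CPM in rats 25 to 32 without passing (adjusted p = 0.129). Of the 12 tested genes in the list of mitochondrially encoded respiratory genes, none rose and 4 fell, beside the same shares of all symbols. For 6 the change was more negative than in WT rats, beside 7.64% of all symbols. MTCO2P12, given further below, was not in this list, and it rose. MT-ND4L fell from 613 ± 18 to 419 ± 79.7 CPM (log2 fold change -0.58, adjusted p = 0.00201). MT-ND2 fell from 14516 ± 986 to 12551 ± 955 CPM and MT-CYB from 26009 ± 1444 to 22490 ± 1655 CPM, calls that upper-quartile scaling removed (adjusted p between 0.0138 and 0.115 over all alternative settings for MT-ND2 and between 0.00825 and 0.0998 for MT-CYB). MT-ND1 and MT-ND3 had log2 fold changes of -0.092 and 0.18 (adjusted p = 0.327 and 0.25). Only 2 of these genes were called lower without KO rat 18, 22, 24 or 28, with upper-quartile scaling, with the 1 CPM filter or without the 50 genes with the most reads. Reads on symbols that begin with MT-, MTCO2P12 not counted, made up 20.8% to 22.4% of a library in rats 17 to 24. In rats 25 to 32 they made up 18.6% to 21.3%, and their part in other results was not tested. Of nuclear-encoded subunits, 9 rose and 4 fell of 29 tested, beside the same shares of all symbols. The count that rose was 5 without KO rat 22, 24 or 28 and 14 without rat 30. COX5A, of complex IV, rose from 336 ± 19.6 to 449 ± 45.8 CPM, NDUFS1, of complex I, fell from 490 ± 9.34 to 438 ± 12.1 CPM, NDUFS3 did not pass (adjusted p = 0.0675), and PPARGC1A, the coactivator that drives mitochondrial genes, fell from 59.2, 64, 67.5 and 67.1 CPM to 40.8, 29.7, 50.1 and 23.9 CPM (log2 fold change -0.87 ± 0.17 SE, adjusted p = 0.00337). The difference from WT rats was -0.80 (adjusted p = 0.0355).

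Clock genes differ with the hour of sampling, and of 21 tested 1 rose and 6 fell, beside 22.6% and 23.4% of all symbols. The share that fell was close to that of all symbols. None was called in WT rats, beside 8.79% and 9.54% of all symbols. For the difference between genotypes 1 in each direction was called, beside 7.1% and 7.64% of all symbols. ARNTL, the core activator BMAL1, was 19.3, 9.05, 13.1 and 6.32 CPM in rats 17 to 24 and 9.05, 7.76, 6.81 and 5.1 CPM in rats 25 to 32, with wide spread in the lower-numbered range, and did not pass (adjusted p = 0.0684). CLOCK and its relative NPAS2 fell with overlapping ranges, from 15.8 ± 2.2 to 9.94 ± 4.18 CPM and from 13 ± 4.02 to 7.09 ± 2.02 CPM (adjusted p = 0.0427 and 0.0188). The call for NPAS2 was lost in the fit of all 16 rats (adjusted p between 0.00166 and 0.0584 over all alternative settings), and that for CLOCK without the filter on low counts (adjusted p between 0.0113 and 0.114 over all alternative settings). Without KO rat 32 only 2 clock genes were called lower. NFIL3, a repressor in the clock's output, rose from 4.75 ± 0.574 to 7.71 ± 0.998 CPM. In the hormone list, 3 rose and 3 fell of 13 tested, close to the shares over all symbols. AGTR1, an angiotensin receptor, fell from 16.2 ± 0.337 to 11.9 ± 2.17 CPM (counts not all whole) and SLC8A1, the sodium-calcium exchanger, from 144 ± 21.9 to 89.9 ± 31.2 CPM.

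Further symbols were named by the size of the difference between genotypes. ADRA1D, an adrenergic receptor, rose in KO rats from 4.08, 6.08, 3.99 and 6.07 CPM to 18.3, 28.7, 23.8 and 16.2 CPM, and WT rats held 2.17 ± 0.664 and 1.77 ± 0.318 CPM (difference 2.25, adjusted p = 0.000421). ODAD1, of the ciliary dynein docking complex, rose from 0.468 ± 0.0893 to 1.6 ± 0.454 CPM, and IGFBP6, which binds insulin-like growth factors, from 0.536 ± 0.306 to 1.78 ± 0.278 CPM. SCEL, sciellin of stratified epithelium, rose from 2.84 ± 1.15 to 5.45 ± 1.85 CPM with overlapping ranges. On the negative side, OSBPL8, a lipid-transfer protein, fell from 20.1 ± 4.85 to 9.63 ± 2.45 CPM, PPP1R16B, a phosphatase subunit, from 53.2, 56.6, 61.2 and 65 CPM to 35, 23, 36.1 and 19.8 CPM, and USP26, a deubiquitinase, from 4.96 ± 1.49 to 1.38 ± 0.409 CPM. For APOB, the lipoprotein backbone, and CHRNA2, a nicotinic receptor subunit, the KO ranges overlapped and did not pass (adjusted p = 0.825 and 0.387), and the WT rats rose, from 8.55 ± 2.4 to 23.3 ± 9.49 CPM and from 1.03 ± 0.471 to 3.73 ± 0.793 CPM. Among the called symbols with the most reads, FTH1, the ferritin heavy chain, rose from 2723, 2829, 2637 and 2681 CPM to 4038, 4663, 3704 and 4412 CPM (log2 fold change 0.60 ± 0.086 SE, adjusted p = 0.000421), with 0.56 in WT rats. MTCO2P12, a symbol of a human copy of mitochondrial COX2, rose from 15732 ± 1305 to 20288 ± 2303 CPM (log2 fold change 0.34, adjusted p = 0.022). Symbols are human-style, so MTCO2P12 may stand for the rat's own mitochondrial COX2, which was not tested.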

How the data were processed

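RNA from the kidneys of 16 rats was sequenced, and the authors deposited 1 table of expected counts per gene symbol. Every value carries an added 1/6. Taking it off left whole reads, within 0.01, for 97.7% of rat values. The other values, in 556 symbols, were kept and rounded for the tests, and they may hold reads divided between similar genes. Per the labels, libraries were processed with bcl2fastq 2.20, STAR 2.7.3, R 3.6.1 and DESeq2 1.24.0, with rat build rn5; the counting options are not given in the sources used here. Symbols are human-style, so several rat genes may share 1 symbol, and 95 symbols in 43 groups hold identical values at 50 reads or more in all.

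Counts were tested with edgeR 4.0.16 in R 4.3.3: TMM scaling, filterByExpr with its default limits, and the quasi-likelihood test of range, fitted on the 8 KO rats, on the 8 WT rats, and on all 16 for the difference between genotypes. P-values were adjusted by Benjamini-Hochberg over all symbols tested, with a threshold of 0.05. The code was tested on simulated data. Depth was 24684097 to 40629873 reads per rat. Intervals of read ratios are exact binomial at 95% and cover counting error only. P-values set a difference between ranges against the spread between rats within a range. They do not cover variation between litters or processing days, which the labels do not give. DESeq2 1.42.0, limma-voom (limma 3.58.1), other scalings and filters, and leaving out each rat were tried as alternatives.

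Named genes were CTNS, the 12 largest rises and 12 largest falls without overlap, at a mean of 1 CPM or more and with whole reads, the 8 largest differences between genotypes in each direction under the same conditions of level and whole reads, overlap allowed, the 5 called symbols with most reads, and of each gene list the first 3 tested members with the largest rise and fall. Other list members named by a log2 fold change alone were chosen after their values were seen. The comparison and the gene lists were chosen with earlier results of these data known. The list of Y-linked genes gave 1 tested symbol, and other Y-linked or X-inactivation transcripts were not analysed here. Some named genes are not reported here. Promoters came from RefSeq (GRCr8).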

Additional observations from a re-analysis of the deposited data

Results flagged for a closer look

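In groups of 4 rats, a rat was marked as standing apart when its gap to the nearest other rat took up most of the group's range, by Dixon's critical value at 95%. This was so in 19 of 310 groups of named genes, and chance marks about 1 group in 20. The share of the range taken by the gap is given for each. In the range 17 to 24, rat 18 stood apart for MPPED1 (1, its 2 reads), AGT (0.85), COL1A1 (0.975) and FLT1 (0.857). Rat 20 stood apart for ODAD1 (0.903) and GCLC (0.831). Rat 22 stood apart for CD3G (0.96), CCL2 (0.831), IRF7 (0.893), CDH5 (0.875), LAMP2 (0.843) and PFKFB3 (0.843). In the range 25 to 32, rat 26 stood apart for SLC22A10 (0.869), rat 28 for CDKN2B (0.879) and FOSB (0.845), rat 30 for ADH1A and the identical ADH6 (0.931 each), and rat 32 for SLC2A2 (0.85) and ME1 (0.985).

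The range change differed between KO and WT rats by edgeR's test for 1745 symbols in all, and for 52 of the named genes. The KO change minus the WT change is given on the log2 scale. Among these named genes the largest positive differences were LCN2 (3.04), FGB (2.66), FGG (2.40), ODAD1 (2.31), IGFBP6 (2.29), ADRA1D (2.25), CDKN1A (2.17), SCEL (2.08), TIMP1 (1.72), TREM2 (1.54), ATF3 (1.38), PSMB8 (1.23), NFIL3 (1.21) and C4A (1.05). Smaller positive differences were C3 (0.88), CTSZ (0.88), EIF4EBP1 (0.77), IRF1 (0.74), CDK1 (0.73), DDIT3 (0.67), UMOD (0.65), NQO1 (0.55), LDHA (0.53), PFKP (0.51), MDM2 (0.45), KRT7 (0.42) and CSF1R (0.35). The largest negative differences among them were NXPE2 (-4.73), CHRNA2 (-1.66), ESR1 (-1.51), OSBPL8 (-1.49), PPP1R16B (-1.49), APOB (-1.48), KLK1 (-1.45), PPARA (-1.42), USP26 (-1.41), HNF4A (-0.82) and MT-ND4L (-0.82). Smaller negative differences were GHR (-0.80), PPARGC1A (-0.80), AQP3 (-0.64), SLC34A1 (-0.60), PSAT1 (-0.59), MT-ND2 (-0.48), USP9X (-0.45), ACADM (-0.41), MTOR (-0.40), MT-ND1 (-0.37), KDR (-0.34), NDUFS1 (-0.34), LAMP2 (-0.31) and XPC (-0.27).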

How the results depend on the processing

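The 5382 calls of the KO comparison ranged from 4030 without rat 28 to 5924 without rat 30. The count that rose lay between 1996 and 2955 and the count that fell between 2034 and 2969 when 1 rat was left out, and upper-quartile scaling gave 3012 that rose. Of the calls, 74.1% (without rat 28) to 99.6% were called again in each setting, and none was called with the opposite sign. The WT comparison gave 1370 to 2313 calls with 1 rat left out, with 707 to 1174 higher and 663 to 1139 lower, the lowest without WT rat 29. The test of the difference between genotypes gave 1010 to 2392 calls, with 487 to 1025 more positive in KO rats and 523 to 1388 more negative. The lowest counts came without KO rat 28, and KO rats 22 and 30 and WT rat 27 also moved them by over 1.5 times. The CTNS change lay between -0.032 and 0.094 on the log2 scale with 1 rat left out and was never called. HBA1, at -0.0013 in the report, was 0.014 with all 16 rats in 1 fit, 0.013 with a filter of 1 CPM, 0.003 with DESeq2, 0.00052 without a filter, 0.0022 with DESeq2's size factors, 0.015 without the 50 symbols with the most reads and 0.024 with upper-quartile factors. HBA2, at 0.025, was -0.24 with limma-voom. With 1 rat left out, the log2 fold change crossed 0 for APOB (-0.1 to 0.36), CPT1A (-0.07 to 0.079), EIF1AY (-0.016 to 0.11), ESR1 (-0.14 to 0.21), HBA1 (-0.22 to 0.35), HBA2 (-0.2 to 0.38), HBB (-0.58 to 0.011), HMGCS1 (-0.032 to 0.041), IRF7 (-0.048 to 0.25) and SLC5A2 (-0.067 to 0.031), none of them called in the report. The cause of these moves was not tested. The counts that rose stayed at 23 to 26 for the injury list, 25 to 27 for the cell cycle list and 22 to 25 for the macrophage list with 1 rat left out.

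The ranges stand for something the labels do not name, so age, sex, treatment, litter and handling cannot be told apart from them. Low symbols rest on few reads, as with CDKN2B and SERPINA1. Symbols with counts that are not whole or that repeat another symbol's values are uncertain. No paired analysis was possible because the 2 ranges share no animal number.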
